A study of Mus musculus with 4 samples.

Results

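Vesicle and endosome trafficking genes were described in cultured mouse oligodendrocytes with and without Zdhhc5, a palmitoyltransferase, that is, an enzyme adding palmitate to other proteins. The genes were taken by name from the authors' table: Rab GTPases with their effectors, sorting nexins (Snx), Vps proteins, the SNAREs named Vamp and Stx, Stxbp proteins, synaptotagmins (Syt) and their relatives (Sytl), exocyst subunits (Exoc), Arf GTPases, adaptor subunits (Ap), Sec proteins, Ehd proteins and dynamins (Dnm). In all, 138 of the 6940 listed genes carried such a name, 137 of them protein coding and 1, Rab10os, an antisense RNA of Rab10. RefSeq holds 267 protein-coding mouse genes with these names, of which 137 (51.3%) were listed, and the others were not analysed here. The table as analysed holds only genes with an adjusted p under 0.05 in the authors' own test, so each gene described here had already been called in these libraries.

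The cells were conditional knockout (cKO) oligodendrocytes of genotype Olig1cre/+;Zdhhc5fl/fl and control oligodendrocytes of genotype Zdhhc5fl/fl, with 2 libraries each. Both genotypes carried floxed Zdhhc5 alleles on a C57BL/6 background. Precursors were taken from the cortex at postnatal day 5 by immunopanning, a capture of cells on antibody-coated dishes, with antibodies to GalC and then O4. They were kept 6 days in growth medium and collected 24 h after a switch to differentiation medium with the thyroid hormone T3 at 40 ng/mL. Cre is expressed from the Olig1 locus, which is active in the oligodendrocyte lineage, and only the cKO cells carried it, so Cre, the altered Olig1 allele and the loss of Zdhhc5 cannot be told apart here. The labels do not say whether libraries of 1 genotype came from separate animals or cultures, so p-values measure the spread between these libraries, which may be technical. Zdhhc5 itself was not analysed here.

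Membrane traffic moves proteins and lipids between compartments in vesicles. Coat and adaptor proteins select cargo and shape the vesicle, Rab and Arf GTPases mark membranes and recruit effectors, tethers such as the exocyst catch the vesicle, and SNARE proteins fuse it with its target. Endosomes then sort what was taken up: the retromer and recycling endosomes return cargo to the surface or the Golgi, and the ESCRT machinery sends it to lysosomes. Oligodendrocytes use these routes to deliver myelin proteins and lipids to a growing membrane sheath. Vamp3, Vamp7 and Rab35 are known from other work to take part in membrane traffic of oligodendrocytes.

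The listed genes held 13672254 to 20068016 recovered reads per library. The listed markers of the oligodendrocyte lineage, 12 of 13, were all lower in cKO cells, with a summed level of 85783 and 86812 normalised reads in cKO cells and 365149 and 366588 in control cells. Listed astrocyte markers (11 of 12) were higher for 10 genes and lower for 1, with sums of 850675 to 860123 in cKO cells and 575849 to 577728 in control cells. Pericyte and fibroblast markers (9 of 12 listed, all 9 higher) summed to 11916 to 12303 in cKO cells and 3816 to 4007 in control cells, and microglia markers (6 of 12 listed, all 6 higher) to 3834 to 4038 in cKO cells and 2643 to 2717 in control cells. Neuron markers (11 of 14 listed) were higher for 8 genes and lower for 3, with sums of 19764 to 20112 in cKO cells and 25920 to 26511 in control cells. In bulk RNA, fewer cells of a type and less RNA per cell cannot be told apart, and what part these cells had in the changes below was not tested. Endothelial markers (5 of 10 listed) were higher for 3 genes and lower for 2, with sums of 403 to 434 in cKO cells and 455 to 457 in control cells. Markers that were not listed have no value here, so these sums cover listed genes alone, none of which was at 0.

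Trafficking genes were more often lower than higher in cKO cells, mostly by small amounts. Values below are normalised read counts, the authors' counts divided by 1 size factor per library. Log2 ratios are cKO over control on the scale log2(value + 1), which understates the change of low genes, and folds are ratios of mean normalised counts. Values called GC-corrected are log2 ratios from which the trend with the GC content of a gene's longest transcript, fitted over all listed genes, was taken away. A gene is said to turn where the sign of its log2 ratio changed, whether or not it was then called. With limma and an adjusted p under 0.05, all 138 members were called, as were 100% of the listed genes. Of the members 90 (65.2%) were lower and 48 (34.8%) higher, beside 53.3% lower and 46.7% higher over all listed genes. A change of at least 1.5-fold was seen in 31 members downward (22.5%, against 27.6% of all listed genes) and in 14 upward (10.1%, against 17.4%). At 2-fold the counts were 11 downward (7.97%, against 11.7%) and 5 upward (3.62%, against 5.68%). The median log2 ratio was -0.31 over the members and -0.22 over all listed genes, and the median size regardless of direction was 0.44 and 0.54. In each of the 138 members the cKO values lay on 1 side of both control values, which also held for 46.7% of all listed genes above and 53.3% below, so this separation does not tell the members apart. With relative log expression size factors, which raised the ratios of all listed genes by a median of 0.191, 48 members (34.8%) were called higher and 65 (47.1%) lower, beside 46.8% and 42.0% of all listed genes. With GC correction 27 of 137 members (19.7%) were called higher and 66 (48.2%) lower, beside 28.8% and 41.1% of all listed genes. Corrected for GC content and length, 29 members (21.2%) were higher and 70 (51.1%) lower, beside 28.5% and 41.5% of all listed genes.

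**Figure D1:**
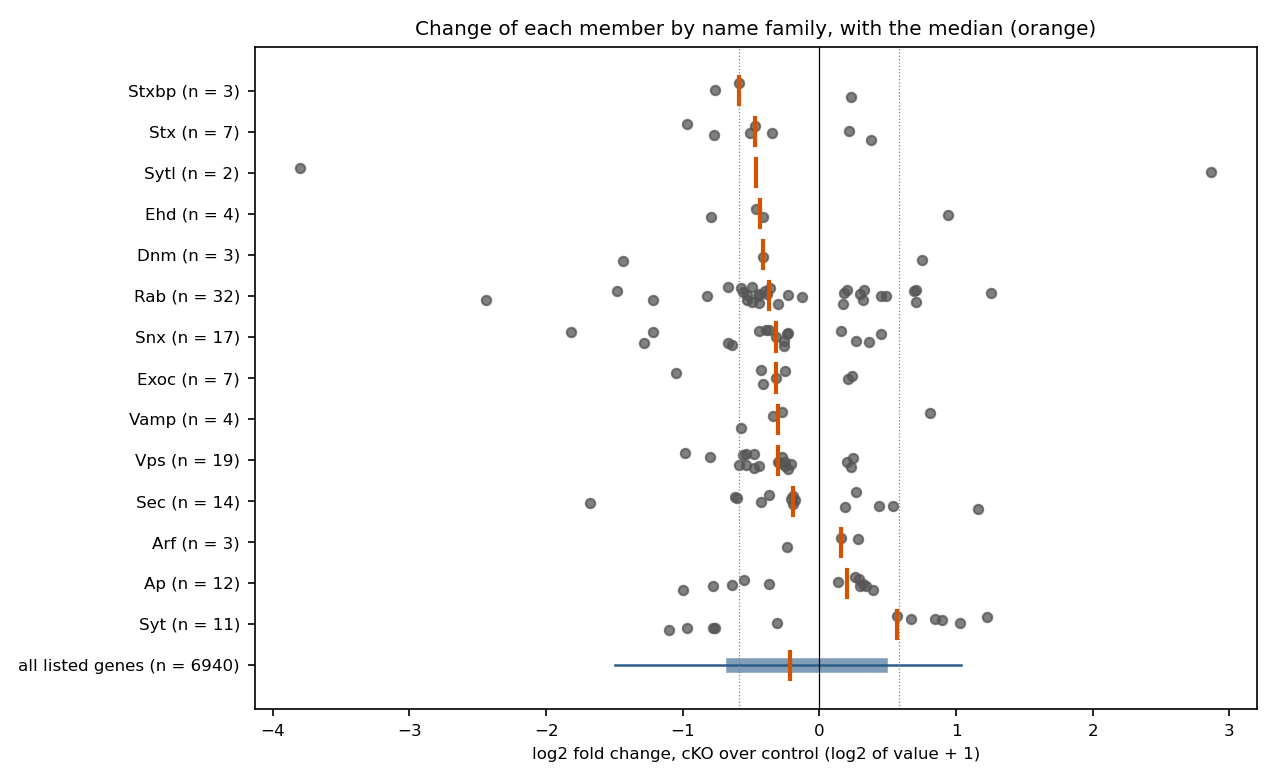
Log2 ratio (fold change on a log2 scale), cKO over control, on the horizontal axis for each of the 138 members (points, spread vertically for legibility) by name family, with the family median in orange; the lowest row gives all 6940 listed genes, where the thick bar spans the middle quartiles, the thin line runs from the 5th to the 95th percentile and orange is the median. Dotted lines mark 1.5-fold. Vps and Snx members lie mostly left of 0, and the Syt family splits into members far to either side.

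Among the members that fell most, Sytl5 led. It encodes a synaptotagmin-like protein that binds Rab27 GTPases, and lies on chromosome X from 9885622 to 9994543 (GRCm38, plus strand). Sytl5 had 11.4 and 5.93 normalised reads in cKO cells, against 131 and 126 in control cells. Both cKO values were far below both control values, and the cKO values rest on 14 and 5 reads. The mean was 14.8-fold lower (log2 ratio -3.80 ± 0.32 SE, limma adjusted p 2.70e-10), and the log2 ratio was -3.62 both with relative log expression factors and with GC correction. Its only other listed relative, Sytl1, had 8.16 and 16.6 normalised reads in cKO cells, against 0 and 2.04 in control cells, too few for a fold to be given. Sytl1 and the other members below that fall outside the rule for named genes were picked with their values known.

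The 250 bases before the start of Sytl5 are shown because this was the deepest fall among the members, and those of Ehd2, the strongest rise among members averaging over 500 normalised reads, are set beside them (RefSeq, GRCm38.p6). Capitals mark CG dinucleotides. The Sytl5 sequence lies at chrX:9885371-9885620 on the plus strand and the Ehd2 sequence at chr7:15967536-15967785 on the minus strand.
Sytl5: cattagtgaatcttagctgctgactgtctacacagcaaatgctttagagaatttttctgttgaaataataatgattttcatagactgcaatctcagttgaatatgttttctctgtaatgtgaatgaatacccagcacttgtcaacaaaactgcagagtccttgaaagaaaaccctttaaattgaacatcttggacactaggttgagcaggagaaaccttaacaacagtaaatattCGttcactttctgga
Ehd2: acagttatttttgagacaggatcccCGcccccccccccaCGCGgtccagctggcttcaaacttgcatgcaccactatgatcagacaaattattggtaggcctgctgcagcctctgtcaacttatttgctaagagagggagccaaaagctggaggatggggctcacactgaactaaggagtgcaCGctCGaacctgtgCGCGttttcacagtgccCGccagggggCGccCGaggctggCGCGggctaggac
The Sytl5 stretch had 1 CG dinucleotide and 35.2% G and C, the Ehd2 stretch 12 and 58.0%. Of other members with large changes, Snx30 and Rab33a, which fell, had 10 (45.6%) and 7 (60.4%), and Dnm1, which rose, 20 (55.6%). Over the first entries of 27025 RefSeq genes the medians were 6 and 52%. Of the 138 members 113 had a RefSeq promoter entry, and over the first entry of each the median of the 74 falling members was 16.5 CG dinucleotides and 60.4% G and C, and that of the 39 rising members 17 and 58.8%, so rising and falling members differed little in the base composition of their promoters. Neither stretch held ACAAAG or ACAATG (core motifs of SOX factors), CTGGCAC (MYRF) or TTCNNNGAA (STAT) on either strand. These letters occur in 16.5%, 10.7%, 4.19% and 7.02% of the 32851 RefSeq promoters over the same length. The motifs were counted separately, and overlaps between them were not removed.

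The largest falls among members averaging over 500 normalised reads belonged to sorting nexins, a Rab and a dynamin. Snx30, a sorting nexin with a membrane-bending BAR domain, had 1284 and 1209 normalised reads in cKO cells, against 4365 and 4458 in control cells. The cKO values were close to each other and far below both control values, 3.54-fold lower on average (log2 ratio -1.82 ± 0.05 SE, limma adjusted p 3.82e-20). Snx18, which works with dynamin in endocytosis, had 4032 and 4128 in cKO cells, against 9942 and 9927 in control cells, 2.43-fold lower. For Snx13, which links endosomes to lipid metabolism of the ER, the mean was 2.34-fold lower and the log2 ratio -1.22, or -0.64 GC-corrected. Rab33a, a Rab of the Golgi and of its outgoing vesicles, had 963 and 882 in cKO cells, against 2577 and 2581 in control cells, 2.8-fold lower (log2 ratio -1.48 ± 0.06 SE, limma adjusted p 5.07e-17).

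Dynamins pinch vesicles off the membrane, and the listed members of this family moved apart. Dnm3, a dynamin found mainly in brain and testis, had 1382 and 1375 normalised reads in cKO cells, against 3674 and 3831 in control cells, 2.72-fold lower (log2 ratio -1.44 ± 0.05 SE, limma adjusted p 3.34e-18). Dnm2, the dynamin of most cell types, was 1.33-fold lower, with means of 5004 ± 69.4 in cKO cells and 6665 ± 26.8 in control cells (SD, n = 2 each). Dnm1, the dynamin of synapses, had 759 and 705 in cKO cells, against 438 and 431 in control cells, 1.69-fold higher (log2 ratio 0.75 ± 0.08 SE, limma adjusted p 1.61e-08). GC-corrected values kept each direction, at -1.15 for Dnm3, -0.82 for Dnm2 and 0.34 for Dnm1. The transcribed region of Dnm3 is overlapped on the other strand by 7 annotated genes, among them Dnm3os, and since the strand setting of the counting was not given, their reads cannot be told apart from those of Dnm3. In all, 54 of the 138 members are overlapped by a gene on the other strand. Dnm1, Dnm2, Rab5a, Rab6a, Vps35, Vps37a, Ap3m1 and Sec61a2 are among them, and the same limit holds for each.

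The Ehd proteins, ATPases that remodel endosomal membranes, also split. Ehd1, which drives return of receptors from recycling endosomes, had 4577 and 4343 normalised reads in cKO cells, against 7628 and 7754 in control cells (1.72-fold lower, log2 ratio -0.79 ± 0.04 SE, limma adjusted p 7.03e-15). Ehd3 and Ehd4 were 1.33-fold and 1.37-fold lower. Ehd2, which sits at the neck of caveolae, had 1579 and 1520 in cKO cells, against 777 and 841 in control cells, 1.92-fold higher (log2 ratio 0.94 ± 0.06 SE, limma adjusted p 3.06e-12, GC-corrected 0.59). Like every member that rose, Ehd2 moved in the same direction as the listed pericyte and fibroblast markers (9 of 9) and microglia markers (6 of 6). The same held for most astrocyte (10 of 11), neuron (8 of 11) and endothelial markers (3 of 5). The part of these cells in the change of Ehd2 was not tested.

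**Figure D2:**
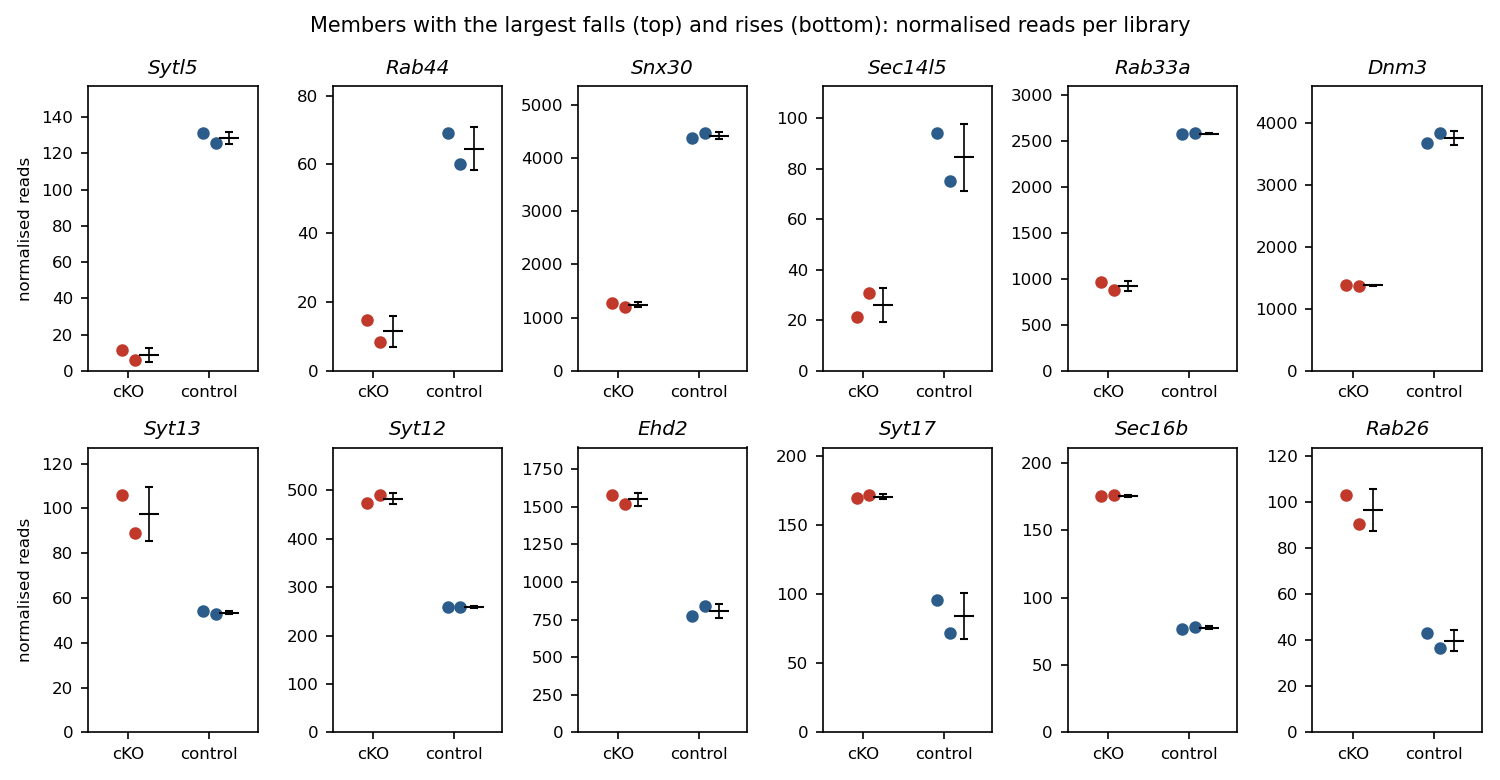
Normalised reads per library (vertical axis, from 0, scaled separately for each gene) for the 6 largest falls (top) and 6 largest rises (bottom) among members with a mean of at least 50 normalised reads in a genotype; points are libraries, cKO in red on the left and control in blue on the right, and the black bar is the mean ± SD of 2 libraries. In each panel the cKO points lie clear of the control points, for instance 1284 and 1209 against 4365 and 4458 for Snx30.

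Low-count members filled other places among the largest changes. Rab44, a large Rab with calcium-binding EF hands, had 14.7 and 8.31 normalised reads in cKO cells, against 69.0 and 60.1 in control cells. Sec14l5, of a family of lipid-binding proteins, had 21.2 and 30.9 in cKO cells, against 94.0 and 75.3 in control cells. Rab26, a Rab of secretory granules, had 103 and 90.2 in cKO cells, against 43.0 and 36.7 in control cells. Their log2 ratios were -2.44 (SE 0.35), -1.68 (SE 0.27) and 1.26 (SE 0.22), so the errors were several times those of the abundant members. Rab26 is overlapped by 3 annotated genes on the other strand, among them Rab26os, with the same limit as for Dnm3. Sec16b, a scaffold of sites where cargo leaves the endoplasmic reticulum (ER), had 175 and 176 in cKO cells, against 77.0 and 78.4 in control cells, 2.25-fold higher (log2 ratio 1.16 ± 0.16 SE, limma adjusted p 1.04e-06).

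Rab GTPases, the switches that give membranes their identity, were lower for 18 and higher for 10 of 28 listed genes, and their median log2 ratio was -0.37. Over all listed genes 53.3% were lower and the median was -0.22. With GC correction 9 of the 28 turned direction, 5 that had been lower and 4 that had been higher. The most abundant per kilobase were little changed. Per kilobase of gene length, Rab5c averaged 4631 normalised reads in cKO cells and 4078 in control cells, the highest of the Rabs over all libraries. Rab5c, an early endosome Rab, had 10447 and 9875 normalised reads in cKO cells, against 8967 and 8929 in control cells, 1.14-fold higher, a direction that turned when GC-corrected (log2 ratio 0.18, corrected -0.17). Rab31, which acts between the Golgi and endosomes, had 15842 and 16369 in cKO cells, against 13180 and 13048 in control cells, 1.23-fold higher. Rab7, the Rab of late endosomes, had 9991 and 9596 in cKO cells, against 10715 and 10672 in control cells, 1.09-fold lower, and turned to a log2 ratio of 0.06 with relative log expression factors.

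Several Rabs of the secretory and endocytic routes fell further. Rab5a, also of early endosomes, had 2310 and 2377 normalised reads in cKO cells, against 3758 and 3675 in control cells (1.59-fold lower, log2 ratio -0.67 ± 0.04 SE, limma adjusted p 2.32e-12). Rab10, which directs vesicles to the cell surface, averaged 6848 ± 192 in cKO cells and 10068 ± 91.5 in control cells, 1.47-fold lower. Its antisense neighbour Rab10os was lower by about as much, 1.49-fold, and reads of the overlapping pair cannot be told apart where strand was not counted. Rab6a of the Golgi was 1.44-fold lower and Rab4a of rapid recycling 1.41-fold lower. Rab39b, at 380 and 348 in cKO cells, against 640 and 649 in control cells, was 1.77-fold lower, although its log2 ratio of -0.82 became -0.24 GC-corrected.

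Other Rabs rose. Rab29, linked to the Golgi and lysosomes, had 556 and 540 normalised reads in cKO cells, against 327 and 342 in control cells (1.64-fold higher, log2 ratio 0.71, SE 0.09). Rab13, of cell junctions, was 1.41-fold higher and Rab15, of recycling endosomes, 1.63-fold higher, although Rab15 did not pass with GC correction (log2 ratio 0.33, limma adjusted p 0.207). Rab35, named above for its part in oligodendrocytes, had 2305 and 2105 in cKO cells, against 1702 and 1815 in control cells, and its log2 ratio of 0.33 became -0.02 with GC correction. Of the effectors that link Rab11 to recycling vesicles, Rab11fip2 was 2.33-fold lower (547 and 472 in cKO cells, against 1188 and 1185 in control cells), whereas Rab11fip4 was 1.62-fold higher and Rab11fip5 1.37-fold higher. With GC correction the log2 ratios of these effectors were -0.70, 0.36 and 0.02.

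Some close relatives went opposite ways. The pairs shown here were chosen after their values were seen and say nothing of relatives in general. Rab1a, which acts between the ER and the Golgi, averaged 4350 ± 63.5 normalised reads in cKO cells and 5670 ± 39.2 in control cells, 1.3-fold lower, while Rab1b averaged 5934 ± 37 in cKO cells and 5163 ± 77.1 in control cells, 1.15-fold higher. Rab11a of recycling endosomes was 1.37-fold lower and Rab11b 1.13-fold higher. With GC correction the Rab1 directions both turned, to log2 ratios of 0.07 for Rab1a and -0.24 for Rab1b, and those of Rab11a and Rab11b became 0.16 and 0.20. In these Rab pairs the falling relative had the lower GC content in its longest transcript, 42.0% for Rab1a beside 58.9% for Rab1b and 39.5% for Rab11a beside 48.1% for Rab11b. The reverse held for the SNAREs Sec22c, with a log2 ratio of -0.21 and 51.1% GC, and Sec22b, with 0.19 and 43.3%. Stretches of 120 coding bases show the difference within the Rab pairs (GENCODE M21, GRCm38), starting at coding base 10 for Rab1a on chromosome 11, base 1 for Rab1b on chromosome 19, and base 7 for Rab11a on chromosome 9 and Rab11b on chromosome 17. Capitals mark a G or C at the third position of a codon.
Rab1a: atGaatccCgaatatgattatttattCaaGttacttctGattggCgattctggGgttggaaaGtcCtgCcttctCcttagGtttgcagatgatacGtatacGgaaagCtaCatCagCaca
Rab1b: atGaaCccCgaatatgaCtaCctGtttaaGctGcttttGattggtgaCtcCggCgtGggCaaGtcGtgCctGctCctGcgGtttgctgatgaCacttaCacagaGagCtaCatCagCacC
Rab11a: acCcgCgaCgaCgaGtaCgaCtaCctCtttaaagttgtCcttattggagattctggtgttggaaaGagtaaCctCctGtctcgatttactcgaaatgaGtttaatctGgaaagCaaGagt
Rab11b: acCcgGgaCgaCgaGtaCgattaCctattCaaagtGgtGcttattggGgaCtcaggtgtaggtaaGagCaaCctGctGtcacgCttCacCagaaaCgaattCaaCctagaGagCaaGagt
The Rab1 stretches matched at 94 of 120 bases and the Rab11 stretches at 96. Of 40 codons in each stretch, 18 ended in G or C in Rab1a and 29 in Rab1b, and 18 in Rab11a and 26 in Rab11b. Over the whole coding sequence the share was 46.3% in Rab1a, 68.7% in Rab1b, 39.8% in Rab11a and 67.9% in Rab11b.

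Across the members, as across the table, the change ran with GC content. Members that rose had a median transcript GC content of 54.1% and those that fell 45.2%, beside 53.6% and 45.1% over all listed genes. The rank correlation of log2 ratio with GC content was 0.52 across 137 members with a value and 0.51 across 6934 listed genes, and that with gene length was -0.20 and -0.34. Genes within these libraries are not independent replicates, and GC content and length are themselves correlated (-0.36 across the members). With GC correction, centred so that the mean change stayed, 34 of 137 members turned direction, 18 that had been higher and 16 that had been lower, and 77 kept direction and call. How many of all listed genes turned was not counted. Counts of turned genes, here and for single groups of members, therefore do not tell the members apart. Some that turned did not pass afterwards, such as Rab1a (0.07, limma adjusted p 0.161) and Ap1b1 (-0.06, limma adjusted p 0.646). Others did, such as Vps35 (0.19, limma adjusted p 6.94e-04). Of the members that turned, Ap1s2 had the largest uncorrected log2 ratio in size, -0.64. Among members described here, Ap5m1, Vps4b, Ap3m1, Vps26a, Snx6, Sec63, Exoc1, Exoc2, Vamp3, Vps13b, Sec23ip, Vps45, Snx3, Snx21, Stx8, Sec14l1, Rab11fip5, Rab15 and Sytl1 kept their direction with GC correction but no longer passed. What gives rise to the trend was not tested.

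**Figure D3:**
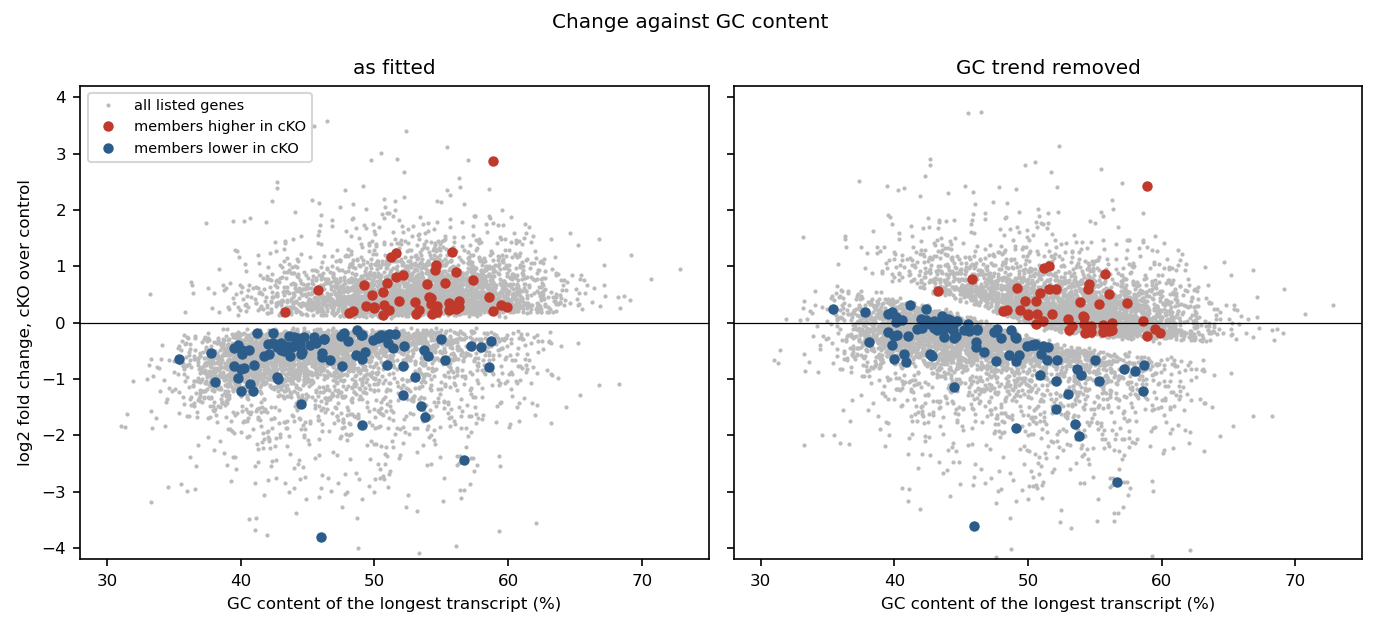
Log2 ratio (fold change on a log2 scale), cKO over control (vertical axis), against the GC content of the gene's longest transcript in percent (horizontal axis), as fitted (left) and with the trend over all listed genes removed (right); grey points are listed genes, red and blue points are members that were higher or lower in cKO cells before removal, and 3 listed genes lie outside the drawn range of the left panel. Red points gather at higher GC content (median 54.1%) than blue points (median 45.2%), and on the right 34 of the 137 points have crossed 0. The same count was not made over all listed genes.

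Adaptor subunits, which link cargo to coats, went both ways, also within AP-1, AP-3 and AP-5. Of the 9 listed subunits of AP-1 to AP-3, 6 were higher and 3 lower, beside 46.7% higher and 53.3% lower over all listed genes. The 6 rises were small, with log2 ratios from 0.14 for Ap2m1 to 0.34 for Ap3b2, and with GC correction 5 of these turned below 0, all but Ap3m2 at 0.16. Of the 5 that turned, only Ap2s1 passed with GC correction (-0.13, limma adjusted p 0.0166). Ap2m1, the cargo-binding subunit of the endocytic adaptor, had 10139 and 9702 normalised reads in cKO cells, against 8940 and 9118 in control cells. Ap3m1 and Ap3m2, alternative subunits of AP-3, had log2 ratios of -0.55 and 0.32, and -0.10 and 0.16 with GC correction. The subunits of AP-4 and AP-5 fell further where they fell. Ap4e1, of the adaptor that exports cargo from the Golgi, had 186 and 187 in cKO cells, against 373 and 376 in control cells, 2-fold lower (limma adjusted p 2.62e-08, GC-corrected log2 ratio -0.60). Ap5m1 was 1.72-fold lower and Ap5s1 1.3-fold higher. Their log2 ratios of -0.78 and 0.39 became -0.17 and -0.01 GC-corrected, and Ap5s1 did not pass without control 2 (limma adjusted p 0.0581). The Arf GTPases, which recruit adaptors, changed little: Arf3 and Arf5 had log2 ratios of 0.16 and 0.28 and Arf4 of -0.24, each turning direction with GC correction (-0.14, -0.18 and 0.11).

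Endosomal sorting complexes were mostly lower, beside 53.3% lower and a median log2 ratio of -0.22 over all listed genes. Of 8 listed genes of the retromer and its sorting nexin partners, 6 were lower and 2, Snx3 and Snx17, higher, at a median log2 ratio of -0.33; Snx17 and Vps35 turned with GC correction. Vps35, the core of the retromer, had 3964 and 4203 normalised reads in cKO cells, against 5695 and 6143 in control cells, 1.45-fold lower, but turned when GC-corrected (log2 ratio -0.54, corrected 0.19). Vps26a, which binds Vps35, was 1.39-fold lower, but did not pass with GC correction (log2 ratio -0.09, limma adjusted p 0.278). Snx1, Snx5 and Snx6, which shape retromer tubules, had log2 ratios of -0.26, -0.39 and -0.44. Snx6 did not pass with GC correction (-0.10, limma adjusted p 0.125), nor Snx1 with relative log expression factors (-0.07, limma adjusted p 0.311), with which the median of the 8 genes was -0.13. Snx3, which brings the retromer to early endosomes and was 1 of the 3 most abundant members per kilobase, had 6521 and 6494 in cKO cells, against 5130 and 5007 in control cells. It was 1.28-fold higher (log2 ratio 0.36 ± 0.04 SE, limma adjusted p 6.84e-09), or 0.07 GC-corrected and -0.06 when corrected for GC content and length. The largest rise of a sorting nexin was that of Snx21, a protein of early endosomes, with 523 and 466 in cKO cells, against 345 and 377 in control cells (log2 ratio 0.45, GC-corrected 0.12).

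Tethers and ESCRT genes were also mostly lower, beside 53.3% of all listed genes. The median log2 ratio of the HOPS and CORVET genes was -0.25, near the -0.22 of all listed genes. All 5 listed genes of the HOPS and CORVET complexes, which tether late and early endosomes, were lower within a narrow range, from -0.27 for Vps8 to -0.21 for Vps16 on the log2 scale, but Vps41 turned to 0.03 GC-corrected, and with relative log expression factors none of the 5 passed (limma adjusted p from 0.454 to 1). Of 5 listed ESCRT genes under the naming rule, 4 were lower and 1, Vps28, higher, which turned with GC correction. Among ESCRT genes with other names, 8 of 13 listed were lower, at a median log2 ratio of -0.23. Vps37a, of ESCRT-I, had 1024 and 933 normalised reads in cKO cells, against 1910 and 1943 in control cells, 1.97-fold lower (log2 ratio -0.98 ± 0.06 SE, limma adjusted p 4.42e-13, GC-corrected -0.39). Vps4b, the ATPase that takes the ESCRT lattice apart, was 1.5-fold lower, but with GC correction its log2 ratio of -0.59 became -0.12 and did not pass (limma adjusted p 0.155). Vps54, of a complex that tethers endosomal vesicles at the Golgi, was 1.75-fold lower, and its partner Vps52 was 1.17-fold higher, which GC-corrected were -0.23 for Vps54 and, turned, -0.16 for Vps52. The VPS13 genes, whose proteins move lipids between membranes, were lower in all 3 listed cases, from -0.56 for Vps13a to -0.29 for Vps13b, with Vps13a at 0.01 GC-corrected and Vps13b at 0.19 when corrected for GC content and length.

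The exocyst, which tethers vesicles at the plasma membrane, was lower for 5 and higher for 2 of 7 listed subunits, beside 53.3% lower over all listed genes. With relative log expression factors only 2 subunits passed as lower, and with correction for GC content and length Exoc1 and Exoc2 turned. Exoc5 had 668 and 667 normalised reads in cKO cells, against 1364 and 1394 in control cells, 2.07-fold lower (log2 ratio -1.05 ± 0.06 SE, limma adjusted p 5.26e-13, GC-corrected -0.34). Exoc5 overlaps Ap5m1 on the other strand, and both fell; their reads cannot be told apart without a strand setting. Exoc4 had 5410 and 5395 in cKO cells, against 4612 and 4763 in control cells. It was 1.15-fold higher (log2 ratio 0.21, GC-corrected 0.22). Exoc7 was 1.18-fold higher and turned to -0.15 with GC correction.

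SNAREs, the proteins that fuse membranes, were lower for 9 and higher for 4 of 13 listed genes, beside 53.3% lower over all listed genes. Of the 12 with a GC value 1, Vamp4, turned with GC correction. Several others kept their direction but no longer passed, among them Vamp3 and Stx8. The median log2 ratio of the SNAREs was -0.34, and -0.04 with GC correction. Stx2, a syntaxin of the plasma membrane, fell most, with 1553 and 1547 normalised reads in cKO cells, against 3007 and 3064 in control cells, 1.96-fold lower (log2 ratio -0.97 ± 0.05 SE, limma adjusted p 8.03e-15, GC-corrected -1.26). Vamp7 had 603 and 618 in cKO cells, against 932 and 883 in control cells, 1.49-fold lower, and Vamp3 had 3654 and 3801 in cKO cells, against 4769 and 4682 in control cells, 1.27-fold lower. The log2 ratio of Vamp3, -0.34, was -0.05 with GC correction, and Vamp7, which the table places on an unplaced scaffold, had no GC value. Stx16 of the Golgi and Stx7 of late endosomes were 1.7-fold and 1.43-fold lower. Vamp8, a SNARE of late endosomes and secretory granules, had 279 and 230 in cKO cells, against 126 and 164 in control cells, 1.76-fold higher (log2 ratio 0.81 ± 0.14 SE, limma adjusted p 3.42e-05). Stx8 was 1.31-fold higher.

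Of 5 listed proteins that guide SNARE assembly, 3 were lower and 2 higher, near the 53.3% and 46.7% of all listed genes. Stxbp3, which binds syntaxins of the plasma membrane, had 779 and 739 normalised reads in cKO cells, against 1287 and 1280 in control cells, 1.69-fold lower (log2 ratio -0.76, GC-corrected -0.24). Vps45, which serves SNAREs between the Golgi and endosomes, had a log2 ratio of 0.25 and did not pass without control 2 (limma adjusted p 0.148).

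Synaptotagmins, membrane proteins with paired C2 domains that in part sense calcium, held both the most abundant member and several strong changes. Syt11, a synaptotagmin that does not sense calcium, averaged 4748 normalised reads per kilobase in cKO cells and 5874 in control cells, the highest of all members. Its counts were 25103 and 24329 in cKO cells, against 30478 and 30670 in control cells, 1.24-fold lower (log2 ratio -0.31 ± 0.03 SE, limma adjusted p 2.36e-09). Of 11 listed synaptotagmins 6 were higher and 5 lower, beside 46.7% higher and 53.3% lower over all listed genes. At least 1.5-fold, 5 rose and 4 fell, beside 17.4% and 27.6% of all listed genes. None turned with GC correction. Syt12 had 474 and 490 in cKO cells, against 258 and 260 in control cells, 1.86-fold higher. Syt17 was 2.03-fold and Syt13 1.82-fold higher, both from under 100 normalised reads in control cells. Syt13 did not pass when corrected for GC content and length (log2 ratio 0.56, limma adjusted p 0.053). Syt4, a synaptotagmin of dense-core vesicles, had 244 and 186 in cKO cells, against 450 and 465 in control cells, 2.13-fold lower (log2 ratio -1.10 ± 0.12 SE, limma adjusted p 1.59e-08).

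Members known for transmitter release at synapses went both ways. Of 10 listed, 5 were higher and 5 lower, near the 46.7% and 53.3% of all listed genes, so the split does not tell them apart. Their median log2 ratio was -0.03, beside -0.22 over all listed genes, and became -0.32 with GC correction. With that correction 2 of them, Ap3b2 included, turned. Syt1, the calcium sensor of fast release, had 331 and 290 normalised reads in cKO cells, against 224 and 193 in control cells, 1.49-fold higher. Rab3a of synaptic vesicles averaged 1515 ± 85 in cKO cells and 1859 ± 94.8 in control cells, 1.23-fold lower, and did not pass with relative log expression factors (limma adjusted p 0.199). In the neuron markers given above, 8 of 11 were higher while their summed level was lower, and Elavl3, Map2 and Dcx fell (log2 ratios -1.70, -0.52 and -0.40, that of Dcx 0.14 with GC correction). Syt1 is itself on that marker list.

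Genes of the early secretory pathway went both ways, as did all listed genes, of which 53.3% were lower and 46.7% higher. Of 6 listed COPII genes, whose coat buds vesicles from the ER, 4 were lower and 2 higher. Sec24a and Sec24d, alternative cargo-binding subunits, went apart: Sec24a had 818 and 729 normalised reads in cKO cells, against 1148 and 1195 in control cells, and Sec24d had 1535 and 1411 in cKO cells, against 1029 and 992 in control cells. Their log2 ratios of -0.60 and 0.54 were -0.25 and 0.38 with GC correction. The falls of Sec23a, Sec23b and Sec23ip were small, from -0.19 to -0.18, and with relative log expression factors Sec23b and Sec23ip turned to 0.01 and 0.00, and with GC correction Sec23a and Sec23b turned to 0.24 and 0.32. Of 4 listed genes of the ER translocon, the channel for new secretory proteins, Sec61a2, Sec62 and Sec63 were lower (log2 ratios -0.62, -0.37 and -0.43) and Sec61b was higher (0.27), with Sec62 at 0.05 and Sec61b at -0.13 with GC correction. Sec14l1, of the same lipid-binding family as Sec14l5, was 1.36-fold higher.

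Trafficking genes that the naming rule does not take were also counted. Of 101 such genes in 5 lists, 56 were listed, 33 (58.9%) lower and 23 (41.1%) higher, near the 53.3% and 46.7% of all listed genes, and the median log2 ratio was -0.26, beside -0.22. With relative log expression factors 21 (37.5%) were called lower and 23 (41.1%) higher, beside 42.0% and 46.8% of all listed genes. With GC correction 20 (35.7%) were called lower and 11 (19.6%) higher, beside 41.1% and 28.8% of all listed genes. Clathrin-linked endocytic genes were lower for 8 and higher for 4 of 12 listed. Eps15, a scaffold of clathrin-coated pits, had 2998 and 2887 normalised reads in cKO cells, against 8646 and 8503 in control cells (log2 ratio -1.54, GC-corrected -1.04), and Bin1, which bends membranes and binds dynamin, had 2596 and 2423 in cKO cells, against 5545 and 5364 in control cells. Rab regulators were lower for 9 and higher for 4 of 13 listed. Chml and Chm, escort proteins needed to attach lipid anchors to Rabs, had log2 ratios of -1.54 and -0.84, and -0.98 and -0.07 with GC correction. Partners of SNAREs were higher for 7 and lower for 6 of 13 listed, with Cplx1 (0.82) and the neuronal Snap25 (0.67) above 0 and Snap23 at -0.40, or 0.16 with GC correction. The COPI coat had 3 higher and 2 lower of 5 listed, with Copz2 at 1.01, and other ESCRT genes 5 higher and 8 lower of 13.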

How the data were processed

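Per the file headers, the deposited table gives each gene's normalised signal in every library, meaning counts over a size factor, with means by genotype, log2 fold changes, p-values and gene lengths; the submitters' processing notes name DESeq2 and the builds mm10 and GRCm38. Aligner, counter and strand setting: not given in the sources used here. Whole reads were recovered from the deposited signal: within 0.01 read, 100% of values were multiples of 1 step per library. For the control libraries, with steps of 1.0 and 1.0181, a check of the step from low values could not be passed, so their read totals and the fits on recovered reads are less certain. All 6940 listed genes had a deposited adjusted p-value of at most 0.0499, and 17347 genes lay behind that adjustment, so Benjamini-Hochberg values here count 17347 genes. Members are compared with other called genes, not with all expressed genes.

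limma 3.58.1 was fitted to log2(value + 1) of all listed genes, using its mean-variance trend and a genotype term alone, which leaves 2 residual degrees of freedom; the filter (at least 1 in 2 libraries) kept 6940 genes and all 138 members. Because the table holds genes already called, the pooled variance, and so the p-values, may be too small. Alternatives included edgeR 4.0.16 and DESeq2 1.42.0 on recovered reads, other size factors, pseudocounts and filters, leaving out each library, and removing GC and length trends (loess, span 0.5, centred on the mean). GC content came from the longest GENCODE M21 transcript (6934 genes). The fit was also run on simulated data in which most genes were unchanged. Here all listed genes had been called, so that run cannot show whether the p-values are too small. The members, the lists and the rule for named genes (Sytl5; the largest rise and fall of each name family; the 6 largest rises and falls; the 3 highest per kilobase; those chosen by change with a mean of at least 50 in 1 genotype) were chosen with earlier results of these data known. Replicate numbers are not stated to pair libraries, so no block entered the fit. A named gene is not reported here.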

Additional observations from a re-analysis of the deposited data

How the results depend on the processing

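Members called higher numbered 48 with either other pseudocount, without a low-value filter, with DESeq2 and with adjustment over the listed genes only, and 47 with a mean of at least 10. With relative log expression factors, which raised all log2 fold changes by a median of 0.191, 48 members were called higher and 65 lower (3250 and 2914 of all listed genes), 20 fell at least 1.5-fold, the members' median was -0.11 and 21 of the trafficking genes with other names were lower. With TMM factors and with edgeR's quasi-likelihood test the members' median was -0.24. With the GC trend removed, 27 members were called higher and 66 lower (1998 and 2848 of all listed genes), 9 rose at least 1.5-fold, the median was -0.13, and 11 genes with other names were higher and 20 lower. With GC and length trends removed, 29 members were called higher and 70 lower (1975 and 2880 of all listed genes), 7 rose at least 1.5-fold, the median was -0.15 and 13 genes with other names were higher. The cause of these shifts was not tested.

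Some named genes reversed in sign, whether or not they then passed. With the GC trend removed these were Ap5s1 (-0.01), Arf5 (-0.18), Arf4 (0.11), Exoc7 (-0.15) and Rab5c (-0.17). With GC and length trends removed they were Ap5s1 (-0.11), Arf5 (-0.27), Exoc7 (-0.14), Snx3 (-0.06) and Rab5c (-0.26). Leaving out each library in turn gave 45 to 46 members higher, 88 to 90 lower, 14 to 15 up and 29 to 33 down by at least 1.5-fold, a median of -0.33 to -0.29, and 21 to 23 higher and 32 to 33 lower among genes with other names. Ap5s1 and Vps45 did not pass without control 2 (limma adjusted p 0.0581 and 0.148). With a replicate block, 48 members were called higher and 90 lower, with a median of -0.31, and the deviations of same-numbered libraries had a correlation of 0.013. With 2 libraries per genotype, low genes such as Sytl5 and Rab44 are known with wide errors.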
